A study of Homo sapiens with 24 samples.

Results

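The apolipoprotein genes APOA1, APOA2, APOA4, APOA5, APOB, APOC3, APOE, APOH and APOM, together with MTTP, were followed in 4 cancer cell lines treated with melatonin. These 10 genes, of 18244 measured, were given as a list of lipoprotein proteins, with no measured value in the rule. Each gene was taken as the mean of its probe sets that carry 1 gene symbol, and its probe sets, 24 over the 10 genes, were also read singly. Hepatocytes package triglyceride and cholesterol ester into very low density lipoprotein in the endoplasmic reticulum, where the MTTP protein loads lipid onto APOB while it is being made. APOA1 and APOA2 are the main proteins of high density lipoprotein, and APOC3, APOA5 and APOE set how fast plasma triglyceride is hydrolysed and remnants are cleared. The liver makes most of these proteins, the small intestine makes APOB, APOA1 and APOA4 for chylomicrons, and many tissues make APOE.

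Gene expression was measured in HGC-27 (gastric carcinoma), HCT-8 (colorectal carcinoma), Huh-7 and HepG2 (both hepatocellular carcinoma by their labels), with 3 arrays of melatonin-treated and 3 of control cells in each line, 24 in all. Treated cells were kept for 24 h with melatonin at 2.5 mmol/L. By the methods the controls were grown with ethanol alongside, whereas the labels put them at 0 h, so solvent and time in culture cannot be told apart from melatonin by the labels. All lines were grown with fetal bovine serum, itself a source of lipoproteins, the gut lines in another medium than the liver lines, which had DMEM. Values are log2 intensities, and levels were set side by side only within a line. A gene was said to have risen or fallen when its limma test passed an adjusted p of 0.05 over all genes (5% by Benjamini-Hochberg). The replicates are biological by the methods, and 3 arrays per group limit the precision.

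The 10 hepatocyte markers (ALB, TTR, AFP and others) had median control levels of 8.37 (Huh-7) and 9.0 (HepG2), whereas 0 of them lay above the median of all genes in HGC-27 cells. HCT-8 cells carried 6 of 8 intestinal epithelium markers above that median. In HGC-27 cells 0 of the 5 measured gastric epithelium markers were above it, with control means of 1.15 to 1.65, whereas all 5 fibroblast genes were, at 3.18 to 9.13. Of the 4 endothelium markers 1 was above that median in Huh-7 control cells and 0 in each of the other lines. LYZ read 8.02 in Huh-7 and 10.44 in HepG2 control cells, while PTPRC, the defining leukocyte gene, read 0.98 and 0.78. HepG2 melatonin replicate 1 lay far from the rest. Its correlation with other HepG2 arrays over genes was 0.938 to 0.953, and for ACTB the 3′ signal exceeded the 5′ signal by 8.34 on the log2 scale, where the remaining arrays gave 0.08 to 0.72. The 10 genes and the list counts in HepG2 cells are therefore given with and without it.

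The liver lines expressed nearly the whole set and the gut lines expressed APOE. In HepG2 cells 9 of the 10 genes lay above the array median on all 6 arrays, APOA4 being the exception. In Huh-7 cells 8 did, APOA4 and APOA5 being the exceptions. In HGC-27 and in HCT-8 cells only APOE lay above the array median on all 6 arrays. APOE, the ligand by which remnants bind to receptors of the LDL receptor family, read 6.25, 6.33 and 6.28 in HGC-27 control cells and 3.35, 3.14 and 3.26 in HCT-8 control cells. The array medians were 2.98 to 3.05 in HGC-27 and 2.13 to 2.15 in HCT-8 cells. The highest control levels in HepG2 cells were those of APOH, with a mean of 11.37 ± 0.03 (SD, n = 3), APOA2 (11.22 ± 0.06) and APOA1 (10.81 ± 0.02). In Huh-7 cells they were those of APOA2 (10.22 ± 0.02), APOA1 (10.13 ± 0.02) and APOE (9.96 ± 0.06). Intensities of different probe sets are not on 1 scale, so this order says where the signals lie and not how much RNA each gene makes. APOB and MTTP lay above the array median in both liver lines, with control means of 9.01 and 5.90 in HepG2 and of 6.78 and 7.12 in Huh-7 cells, and below it in both gut lines. Each level is read against the medians of its own line's arrays, and none was ranked or tested between lines.

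**Figure D1:**
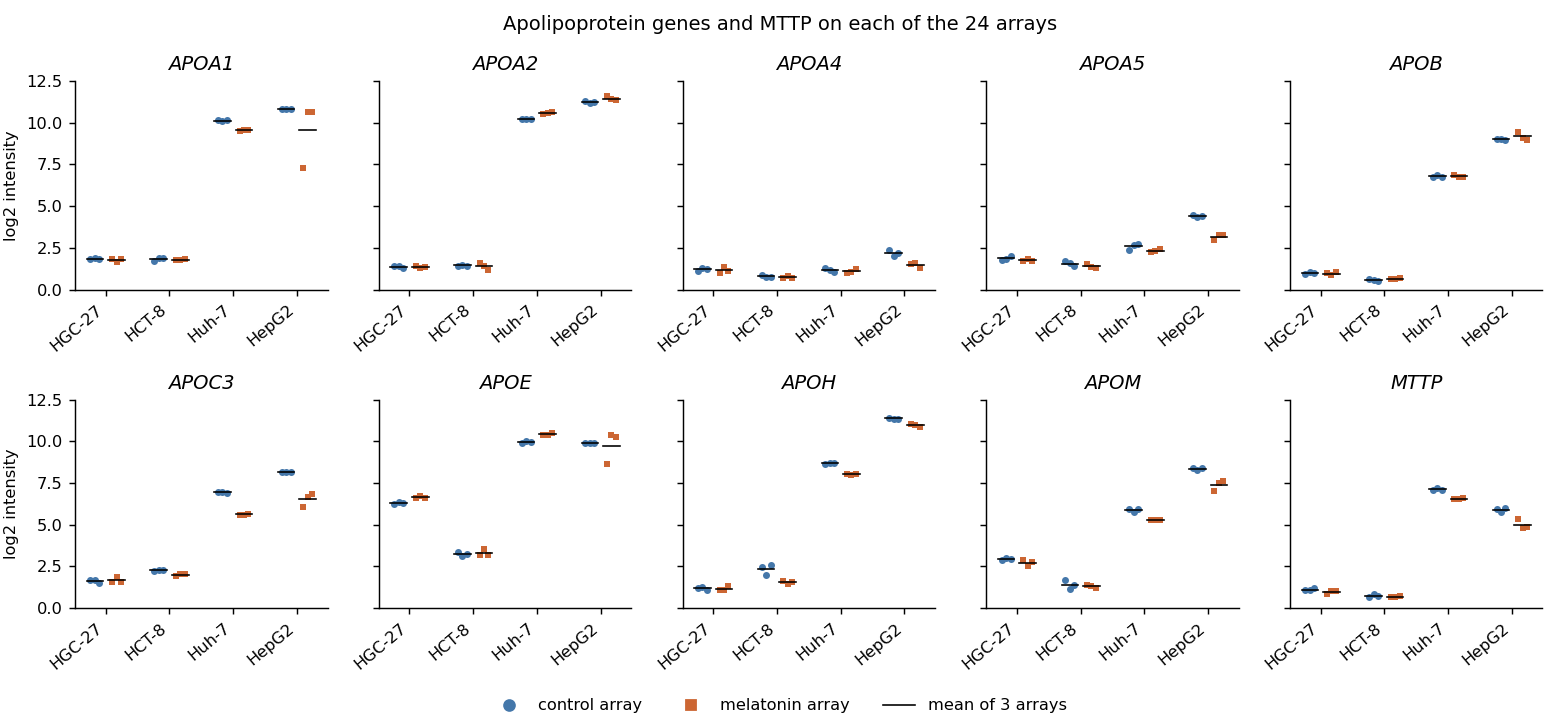
Log2 intensity (vertical axis) of each of the 10 genes on every array, by cell line, with control arrays as circles, melatonin arrays as squares and a bar at the mean of 3 arrays. APOE alone is well above the floor in HGC-27 cells, at 6.25 to 6.74, and HepG2 melatonin replicate 1 lies far below its group for APOA1, at 7.32 against 10.67 and 10.65.

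In both liver lines most of the 10 genes were lower with melatonin. In Huh-7 cells 6 genes fell (APOA1, APOA5, APOC3, APOH, APOM and MTTP) and 2 rose (APOA2 and APOE), where 27.4% of all genes fell and 23.8% rose. In HepG2 cells 6 genes fell (APOA4, APOA5, APOC3, APOH, APOM and MTTP), where 3.68% of all genes fell, and 0 rose, where 3.87% did. At an unadjusted p under 0.05 limma called 1 gene higher in HepG2 cells, APOA2, and the methods' t-test called 0 after adjustment. The same 6 genes fell in HepG2 cells without melatonin replicate 1, where 14.9% of all genes fell, and APOE then rose, where 16.5% did. Genes that fell in both liver lines numbered 5 (APOA5, APOC3, APOH, APOM and MTTP), which is 5 of the 6 in each line, and the comparisons share no arrays. Over all genes 2.82% fell in both lines. Without HepG2 melatonin replicate 1 the number was again 5, where 10.5% of all genes fell in both. The arrays of control and melatonin-treated cells did not overlap for 7 genes in Huh-7 and 8 in HepG2 cells, where 59.5% and 35.5% of all genes did not. The median log2 fold change of the 10 genes was -0.43 in Huh-7 cells, against -0.06 over all genes. It was -0.82 in HepG2 cells against 0.04, and -0.61 against 0.01 without melatonin replicate 1. The HepG2 calls rest on few arrays: without control replicate 1, 2 or 3, in turn, 0 genes passed, and without melatonin replicate 2 or 3 the numbers were 2 and 3. The fold changes themselves stayed between -0.37 and -1.77 for these 6 genes whichever array was left out.

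**Figure D2:**
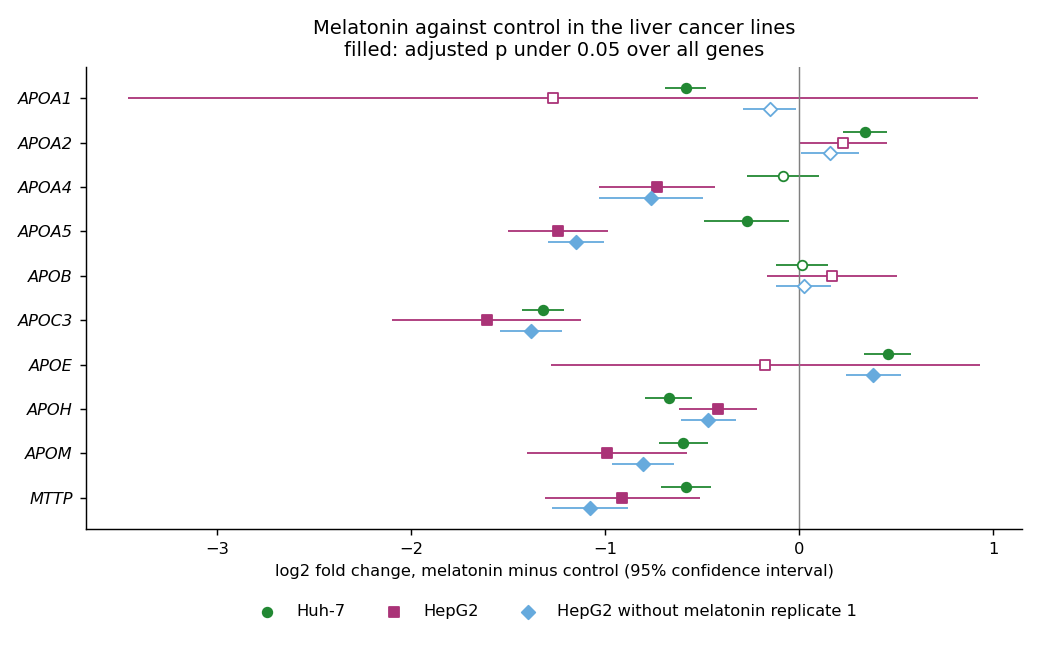
Log2 fold change of each gene, melatonin minus control (horizontal axis), with its 95% confidence interval from limma, in Huh-7 cells (circles), HepG2 cells (squares) and HepG2 cells without melatonin replicate 1 (diamonds); filled symbols passed an adjusted p of 0.05 over all genes. APOC3 lies furthest to the left in Huh-7 cells, at -1.32, and the HepG2 intervals of APOA1 and APOE narrow when replicate 1 is left out.

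Hepatocyte markers moved in the same direction as these genes in part. Of the 10 markers 7 fell in Huh-7 cells, where 27.4% of all genes fell, and 3 in HepG2 cells, where 3.68% did. Without melatonin replicate 1, 4 fell in HepG2 cells, where 14.9% of all genes did. The median log2 fold changes of the markers were -0.20 in Huh-7 and -0.56 in HepG2 cells (-0.07 without that array). Their summed linear intensity was 5614 to 5662 in control and 5517 to 5712 in melatonin-treated Huh-7 cells, which overlap. In HepG2 cells it was 9666 to 9682 in control and 7149 to 9432 in melatonin-treated cells. Without melatonin replicate 1 the latter range was 9160 to 9432. ALB, the most abundant secreted protein of hepatocytes, had log2 fold changes of 0.09 (Huh-7) and 0.01 (HepG2) and did not pass in either line (adjusted p = 0.144 and 0.935 by limma). Of markers of other tissues, 6 of 8 intestinal and 3 of 5 gastric epithelium ones fell in Huh-7 cells. In HCT-8 cells 6 of 8 intestinal and 2 of 5 gastric ones fell, where 15% of all genes did. In HepG2 cells 1 of 8 and 0 of 5 fell (2 and 2 without melatonin replicate 1). In HGC-27 cells 1 of 8 and 0 of 5 fell, where 18.6% of all genes did. There all 5 fibroblast genes fell, with a median log2 fold change of -1.15. In Huh-7 cells 1 of 5 fibroblast, 2 of 4 measured leukocyte and 1 of 4 endothelium markers fell. Whether a smaller share of hepatocyte-like cells or less RNA per cell lies behind a lower value cannot be told apart in bulk RNA, and its part in the results was not tested.

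APOC3 showed the largest fall of the 10 genes in both liver lines. The APOC3 protein inhibits lipoprotein lipase and slows the uptake of triglyceride-rich remnants. In Huh-7 cells APOC3 read 6.95, 6.95 and 6.90 in control and 5.61, 5.6 and 5.63 in melatonin-treated cells. The groups lay well apart, with a log2 fold change of -1.32 (SE 0.05, adjusted p = 3.1e-07 by limma), or 2.5-fold lower. The HepG2 values of APOC3 were 8.15, 8.13 and 8.13 in control and 6.07, 6.67 and 6.84 in melatonin-treated cells. All 3 melatonin arrays lay below the controls, replicate 1 the lowest. The log2 fold change was -1.61 (SE 0.20, adjusted p = 0.011 by limma), 3.05-fold lower, and -1.38 (SE 0.07, adjusted p = 2.9e-05) without that array.

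APOC3 lies among APOA5, APOA4 and APOA1 on chromosome 11, where these 4 are consecutive protein-coding genes in the RefSeq annotation. The 4 neighbours did not change alike. APOA5, a liver protein of low abundance that promotes triglyceride hydrolysis by lipoprotein lipase, read 4.45, 4.36 and 4.44 in HepG2 control cells and 2.98, 3.27 and 3.26 with melatonin. These do not overlap, and APOA5 fell by 1.24 on the log2 scale (SE 0.11, adjusted p = 0.0053 by limma), 2.37-fold, and by 1.15 (adjusted p = 3.4e-05) without melatonin replicate 1. In Huh-7 cells it read 2.39, 2.70 and 2.74 in control and 2.26, 2.34 and 2.41 in melatonin-treated cells. Here the lowest control array lay below the highest melatonin array, and the level was under the array median of 3.27 to 3.33. The Huh-7 log2 fold change of -0.27 (SE 0.10) passed narrowly (adjusted p = 0.044 by limma), and it no longer passed without control replicate 2 or 3 or any 1 of the melatonin replicates, with adjusted p of 0.057 to 0.134.

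APOA4, an intestinal apolipoprotein of chylomicrons that is also found on high density lipoprotein, was low in every line. In HepG2 cells it read 2.36, 2.04 and 2.22 in control and 1.53, 1.59 and 1.30 in melatonin-treated cells, all under the array median. It fell by 0.73 on the log2 scale (SE 0.12, adjusted p = 0.024 by limma), and by 0.76 (adjusted p = 0.0018) without melatonin replicate 1. In Huh-7 cells APOA4 read 1.28, 1.17 and 1.08 in control and 0.96, 1.08 and 1.23 with melatonin, which overlap (log2 fold change -0.09, adjusted p = 0.41 by limma).

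APOA1, which forms the scaffold of high density lipoprotein and activates the enzyme that esterifies its cholesterol, gave the least settled result in HepG2 cells. In Huh-7 cells APOA1 read 10.14, 10.10 and 10.14 in control and 9.53, 9.56 and 9.55 in melatonin-treated cells. The groups did not overlap, and the fall was 1.5-fold (log2 fold change -0.58, SE 0.05, adjusted p = 1.4e-05 by limma). The HepG2 values of APOA1 were 10.80, 10.80 and 10.84 in control and 7.32, 10.67 and 10.65 with melatonin. Melatonin replicates 2 and 3 lay just under the controls and replicate 1 far under them. The log2 fold change was -1.27 (SE 0.90, adjusted p = 0.479 by limma), and -0.15 (SE 0.06, adjusted p = 0.087) without replicate 1.

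The low APOA1 value of HepG2 melatonin replicate 1 came from 4 of the 6 APOA1 probe sets. Probe sets 11758353_s_at, 11758197_s_at, 11758012_x_at and 11757734_x_at read 4.90, 4.96, 5.74 and 7.34 on that array and 10.79, 10.70, 10.06 and 11.01 as the mean of the other melatonin arrays. Probe sets 11757663_x_at and 11757705_x_at read 10.60 and 10.35 against 10.70 and 10.70. Probe sets of the same gene thus disagreed by several log2 units on this array alone, the array whose ACTB probe sets also differed between ends. Over all 45278 probe sets, 804 (1.78%) read more than 3 log2 units lower on replicate 1 than the mean of replicates 2 and 3, and 2 read more than 3 higher. Of the other genes here APOE was lower on that array by 1.67 on the log2 scale, APOC3 by 0.69 and APOM by 0.56, while MTTP and APOB were higher by 0.51 and 0.44. The part of RNA quality in these values was not tested.

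**Figure D3:**
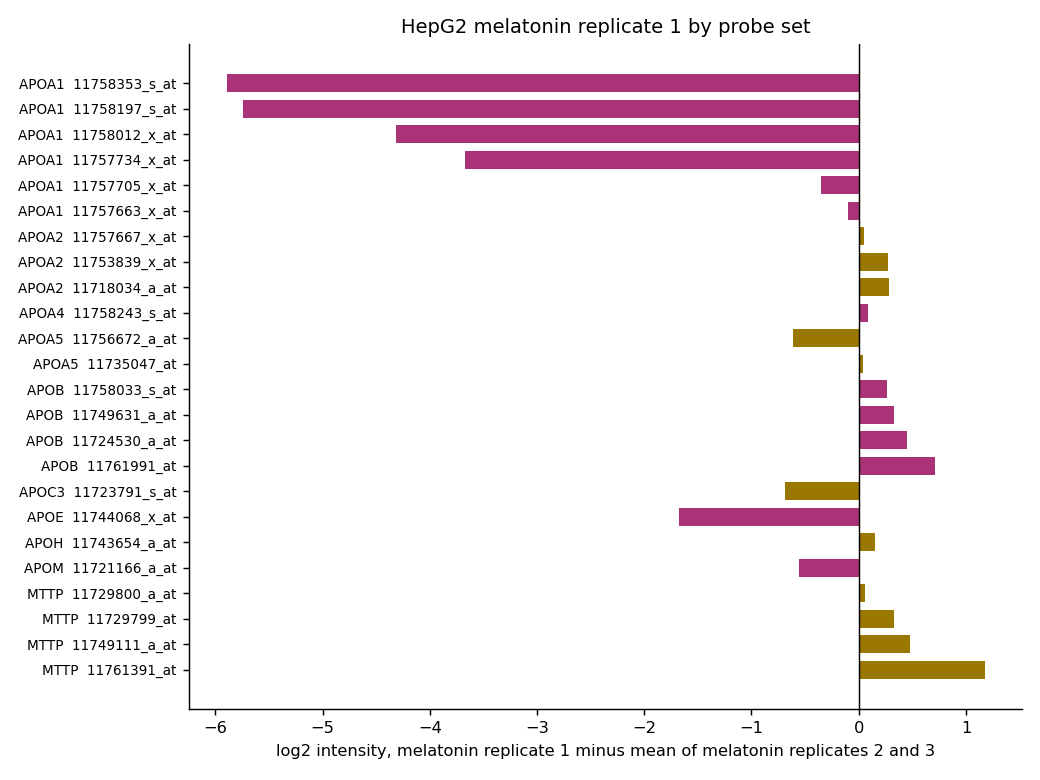
Log2 intensity of HepG2 melatonin replicate 1 minus the mean of melatonin replicates 2 and 3 (horizontal axis) for the 24 probe sets of the 10 genes, with colours alternating between genes. The 4 longest bars are APOA1 probe sets, from -3.67 to -5.89, while the other APOA1 probe sets lie at -0.10 and -0.35.

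MTTP fell in both liver lines whereas APOB did not pass the test in either. MTTP, the subunit of the microsomal triglyceride transfer protein that carries lipid to nascent APOB, read 7.10, 7.20 and 7.08 in Huh-7 control cells and 6.53, 6.51 and 6.59 with melatonin. The groups lay apart, and MTTP fell 1.5-fold (log2 fold change -0.58, SE 0.06, adjusted p = 4.1e-05 by limma). Its HepG2 values were 5.93, 5.75 and 6.0 in control and 5.32, 4.79 and 4.84 in melatonin-treated cells. It fell by 0.91 on the log2 scale (SE 0.16, adjusted p = 0.029 by limma), and by 1.08 (SE 0.08, adjusted p = 0.00012) without replicate 1, which was the highest of the melatonin arrays. Of its 4 probe sets, 11761391_at was near the floor at 1.86 in Huh-7 and 1.76 in HepG2 control cells. The other 3 fell by 0.61 to 0.71 on the log2 scale in Huh-7 cells and by 0.91 to 1.28 in HepG2 cells.

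APOB, the structural protein of very low density and low density lipoprotein, read 6.77, 6.84 and 6.72 in Huh-7 control cells and 6.87, 6.75 and 6.76 with melatonin. The groups overlapped, and the log2 fold change was 0.01 with a 95% confidence interval of -0.12 to 0.15 (adjusted p = 0.85 by limma). Its HepG2 values were 9.02, 9.02 and 8.98 in control and 9.47, 9.08 and 8.99 with melatonin, with a log2 fold change of 0.17 (interval -0.17 to 0.50, adjusted p = 0.54). The interval was -0.12 to 0.17 without replicate 1. The APOB mean joins unlike probe sets: 3 of them read 10.59 to 10.83 in HepG2 control cells and 11761991_at read 3.80. Without replicate 1, 11761991_at fell by 0.47 on the log2 scale (adjusted p = 0.010 by limma over probe sets). The other 3 had log2 fold changes of 0.13 to 0.22 without replicate 1 and of 0.21 to 0.36 with it. None of the 3 passed in either fit, although their melatonin arrays all lay above the controls in both.

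APOA2 and APOE were the 2 genes that rose in Huh-7 cells. APOA2, the other main protein of high density lipoprotein, read 10.24, 10.21 and 10.22 in Huh-7 control cells and 10.52, 10.55 and 10.62 with melatonin. The groups did not overlap, and APOA2 rose 1.27-fold (log2 fold change 0.34, SE 0.05, adjusted p = 0.00049 by limma), with 3 of 3 probe sets higher by 0.33 to 0.36. For HepG2 cells APOA2 read 11.28, 11.17 and 11.22 in control and 11.58, 11.41 and 11.36 with melatonin. All melatonin arrays were above the controls there, but the log2 fold change of 0.23 (SE 0.09) did not pass (adjusted p = 0.22 by limma), and it was -0.010 with the arrays centred on spike-ins. Without melatonin replicate 1 it was 0.16 (adjusted p = 0.10).

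APOE read 9.90, 10.02 and 9.97 in Huh-7 control cells and 10.39, 10.40 and 10.46 with melatonin, a 1.37-fold rise (log2 fold change 0.46, SE 0.05, adjusted p = 0.00014 by limma). HepG2 cells gave 9.92, 9.92 and 9.90 in control and 8.62, 10.34 and 10.25 with melatonin. Replicate 1 lay below and replicates 2 and 3 above the controls, so that the direction turned on this array: the log2 fold change was -0.17 (SE 0.45, adjusted p = 0.86 by limma) with it and 0.38 (SE 0.06, adjusted p = 0.0023) without it. APOE rests on a single probe set, 11744068_x_at. A further one, 11763647_at, is annotated to both APOC1 and APOE and was left out of the gene value. It read 4.50 to 4.58 in control and 3.92 to 4.27 in melatonin-treated Huh-7 cells, the opposite order, and 2.57, 3.99 and 3.61 with melatonin against 3.10 to 3.59 in HepG2 control cells.

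APOH and APOM fell in both liver lines. APOH, a plasma glycoprotein that binds anionic phospholipid, read 8.66, 8.72 and 8.69 in Huh-7 control cells and 8.03, 7.95 and 8.06 with melatonin, 1.59-fold lower (log2 fold change -0.67, SE 0.05, adjusted p = 1.2e-05 by limma). In HepG2 cells it read 11.41, 11.36 and 11.36 in control and 11.06, 10.95 and 10.87 with melatonin, a log2 fold change of -0.42 (SE 0.08, adjusted p = 0.037), and -0.47 (adjusted p = 0.00089) without melatonin replicate 1. APOH rests on the single probe set 11743654_a_at, which with all HepG2 arrays did not pass when adjusted over probe sets (adjusted p = 0.070 by limma). APOM, a lipocalin of high density lipoprotein that carries sphingosine phosphate, read 5.92, 5.78 and 5.91 in Huh-7 control cells and 5.28, 5.26 and 5.28 with melatonin, 1.51-fold lower (log2 fold change -0.60, SE 0.06, adjusted p = 3.5e-05 by limma). In HepG2 cells APOM read 8.38, 8.27 and 8.41 in control and 6.99, 7.51 and 7.59 with melatonin, a log2 fold change of -0.99 (SE 0.17, adjusted p = 0.025), and -0.80 (adjusted p = 0.00016) without melatonin replicate 1. The groups of neither gene overlapped in either line, and replicate 1 was the lowest HepG2 array for APOM and the highest of the melatonin arrays for APOH.

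Promoters were read to show the sequence that lies before the starts of genes that fell in both liver lines. A promoter was found in the RefSeq table (GRCh38.p14) for 7 of the 10 genes, 11 starts in all. APOC3, which also fell in both liver lines, had none there and was not searched, nor were APOA1 and APOB. The 250 bases before each start were searched on both strands for 4 motifs, each with its share of the 35116 promoters of the table. The core of the HNF4A site, AAAGTCC, was in 3.2% of them. Part of the HNF1 site, GTTAAT, was in 6.23%. The sequence TATAAA, bound by the TATA-binding protein, was in 10.7%. The hexamer of nuclear receptor sites, AGGTCA, was in 12.1%. The promoters printed here run 5′ to 3′ towards the start, for APOA5 and MTTP that of the start with more matches, with every match in capitals.
APOA5, chr11:116792421-116792670, minus strand: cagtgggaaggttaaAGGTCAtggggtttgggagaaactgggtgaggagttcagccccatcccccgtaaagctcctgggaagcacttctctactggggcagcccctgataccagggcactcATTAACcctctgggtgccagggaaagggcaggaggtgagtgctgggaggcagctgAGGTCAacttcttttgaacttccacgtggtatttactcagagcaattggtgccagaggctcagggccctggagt
APOH, chr17:66229416-66229665, minus strand: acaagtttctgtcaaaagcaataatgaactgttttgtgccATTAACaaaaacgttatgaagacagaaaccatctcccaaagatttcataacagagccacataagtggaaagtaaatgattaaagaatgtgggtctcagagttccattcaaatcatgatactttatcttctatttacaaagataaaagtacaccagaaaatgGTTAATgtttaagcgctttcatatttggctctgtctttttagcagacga
APOM, chr6:31655644-31655893, plus strand: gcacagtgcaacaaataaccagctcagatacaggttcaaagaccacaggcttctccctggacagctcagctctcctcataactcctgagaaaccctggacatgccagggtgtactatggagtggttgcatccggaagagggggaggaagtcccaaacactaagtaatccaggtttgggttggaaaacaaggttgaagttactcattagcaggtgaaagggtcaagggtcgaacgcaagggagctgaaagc
MTTP, chr4:99574574-99574823, plus strand: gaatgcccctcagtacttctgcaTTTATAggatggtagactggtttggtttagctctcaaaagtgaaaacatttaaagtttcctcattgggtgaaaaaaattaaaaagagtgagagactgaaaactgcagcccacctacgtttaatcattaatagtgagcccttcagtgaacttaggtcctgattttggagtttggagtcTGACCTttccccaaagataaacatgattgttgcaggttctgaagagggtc
The APOA5 promoter held AGGTCA at 235 to 230 and at 74 to 69 bases before the start and GTTAAT on the other strand at 129 to 124. That of APOH held GTTAAT at 49 to 44 bases and, on the other strand, at 210 to 205. In the MTTP promoter AGGTCA lay on the other strand at 50 to 45 bases and TATAAA on the other strand at 227 to 222. Outside the printed sequences AAAGTCC lay 134 to 128 bases before the APOA4 start and AGGTCA 156 to 151 before the other APOA5 start. No match overlapped another, and no match to the 4 motifs was found before APOM, before the other MTTP start, or before APOA2 and the 3 APOE starts. A match describes letters only, and binding was not measured.

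Single probe sets were tested as well, with p adjusted over all probe sets. Of the 24, 14 were called lower and 4 higher in Huh-7 cells, where 23.1% and 22.5% of all probe sets were. In HepG2 cells 8 were called lower, where 2.14% of all probe sets were, and 0 higher, where 2.32% were. In HCT-8 cells 3 were lower and 0 higher (11% and 14.5% of all), and in HGC-27 cells 0 were lower and 1 higher (16.4% and 18.4%). Without melatonin replicate 1, 10 were called lower and 1 higher, where 12.8% and 14.3% were. All 6 APOA1 probe sets fell in Huh-7 cells, by 0.48 to 0.69 on the log2 scale. In HepG2 cells without replicate 1 they lay between -0.09 and -0.23, and 0 of the 6 passed. The 2 APOA5 probe sets, 11735047_at and 11756672_a_at, fell by 1.42 and 1.07 on the log2 scale in HepG2 cells (adjusted p = 0.011 and 0.038 by limma over probe sets).

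**Figure D4:**
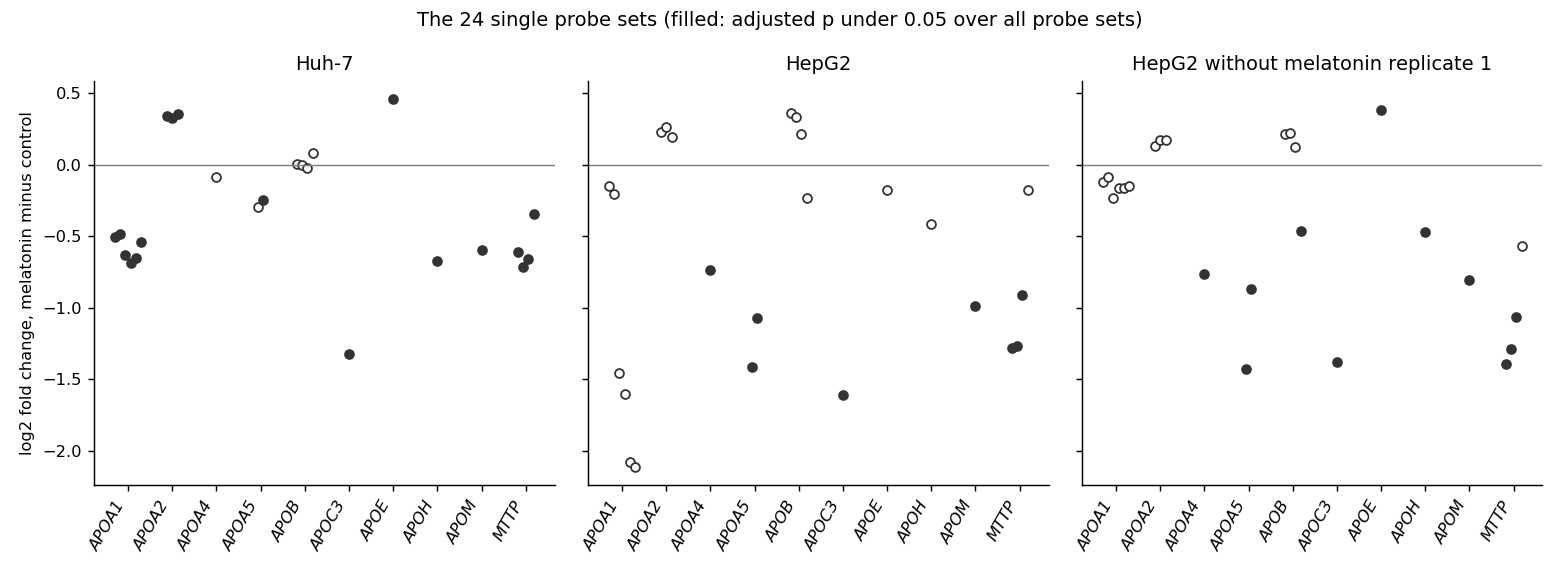
Log2 fold change, melatonin minus control (vertical axis), of each of the 24 probe sets, grouped by gene, in Huh-7 cells, HepG2 cells and HepG2 cells without melatonin replicate 1; filled points passed an adjusted p of 0.05 over all probe sets. The 6 APOA1 probe sets lie together in Huh-7 cells, from -0.48 to -0.69, and spread from -0.15 to -2.11 in HepG2 cells when replicate 1 is in.

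Whether the melatonin effect on a gene differed between the liver lines was tested in a single fit of the 12 liver arrays. The effects differed for 2 of the 10 genes, APOA4 and APOA5, where 11% of all genes differed. For APOA5 the Huh-7 minus HepG2 difference was 0.97 (SE 0.15, adjusted p = 0.0022 by limma), and for APOA4 0.65 (SE 0.15, adjusted p = 0.022), both with the lower value in HepG2 cells. APOA4 read 1.17 and APOA5 2.61 in Huh-7 control cells, under the array median, and APOA4 there was also under the 25th percentile of genes. Such levels leave little room for a fall, although falls from similar levels were measured. APOA4 fell from 2.21 to 1.47 in HepG2 cells. The serum amyloid A gene SAA2 fell from 2.83 to 1.81 in Huh-7 cells (adjusted p = 0.00035 by limma). A difference in response and in starting level cannot be told apart here, and the part of the starting level was not tested. Without HepG2 control replicate 1 or 3, Huh-7 control replicate 2 or 3, or Huh-7 melatonin replicate 2 or 3, only APOA5 passed. Without HepG2 melatonin replicate 1 the effects differed for 4 genes, where 30% of all genes did. The further ones were MTTP (difference 0.50, SE 0.10, adjusted p = 0.0027 by limma), which fell more in HepG2 cells, and APOA1 (difference -0.43, SE 0.07, adjusted p = 0.00037), which was lower by more in Huh-7 cells. For APOC3 the difference was 0.29 with an interval of -0.19 to 0.76 (adjusted p = 0.43), and for APOB it was -0.15 with an interval of -0.49 to 0.19 (adjusted p = 0.55).

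In the gut lines few of the 10 genes changed, and all but APOE lay near or below the array median. In HGC-27 cells APOE rose from 6.25, 6.33 and 6.28 to 6.58, 6.74 and 6.62, with no overlap (log2 fold change 0.36, SE 0.06, adjusted p = 0.00097 by limma). It was the only gene of the 10 to rise, where 20.9% of all genes rose, and 0 of the 10 fell, where 18.6% did. At an unadjusted p under 0.05 APOM and MTTP were lower in HGC-27 cells by limma, 2 genes, and the methods' t-test called 0 lower. In HCT-8 cells APOH read 2.48, 1.98 and 2.56 in control and 1.64, 1.44 and 1.58 with melatonin (log2 fold change -0.79, SE 0.14, adjusted p = 0.0028 by limma), and APOC3 2.20, 2.27 and 2.30 against 1.93, 2.03 and 2.05 (log2 fold change -0.25, SE 0.06, adjusted p = 0.011). Levels of both genes lay near or under the array median of 2.13 to 2.15. These were the 2 genes that fell in HCT-8 cells, where 15% of all genes fell. Limma called 0 of the 10 higher, where 16.6% were, with 0 at an unadjusted p under 0.05 and 0 by the methods' t-test. APOE read 3.19, 3.53 and 3.17 with melatonin in HCT-8 cells, which overlaps its controls (log2 fold change 0.05, adjusted p = 0.76). Over the 4 lines the effect of melatonin differed for 7 of the 10 genes by limma's F test, where 34.3% of all genes differed, the exceptions being APOA1, APOB and APOE. The 7 genes lay below or close to the array median in the gut lines, which leaves little room for a fall. APOH and APOC3 fell in HCT-8 cells all the same. For the genes that fell in the liver lines, a difference in response and in level cannot be told apart. Without HepG2 melatonin replicate 1 it differed for 9, where 53.7% did, APOB being the exception.

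Other genes of lipoprotein metabolism were counted in 5 lists. Of 22 other apolipoprotein and lipoprotein-borne genes, 8 fell and 1 rose in Huh-7 cells. In HepG2 cells 3 fell and 0 rose (6 and 2 without melatonin replicate 1). Over all genes 51.2% were called in Huh-7 and 7.55% in HepG2 cells (31.4% without replicate 1). SAA4, the constitutive serum amyloid A of high density lipoprotein, fell from 5.79 ± 0.18 to 2.52 ± 0.14 (SD, n = 3) in Huh-7 cells and from 9.26 ± 0.05 to 8.47 ± 0.18 in HepG2 cells. These are log2 fold changes of -3.26 and -0.80 (adjusted p = 2.2e-07 and 0.014 by limma). APOC2, the cofactor of lipoprotein lipase, fell by 0.71 on the log2 scale in Huh-7 and by 0.41 in HepG2 cells. SAA1, an acute phase protein, fell by 0.95 in Huh-7 cells, APOL1, which kills trypanosomes, fell by 0.94 in HepG2 cells, and PON3, a paraoxonase, rose by 0.52 in Huh-7 cells. The list medians were -0.11 in Huh-7 and 0.00 in HepG2 cells (-0.06 without replicate 1). The 18 HepG2 calls that the rule for named genes took from the 5 lists all held in the same direction without replicate 1. Their log2 fold changes were then 0.816 to 1.11 times those given. The rule asked for a call and no overlap with that array in, so the choice of genes largely set this outcome.

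Genes of lipoprotein assembly and secretion were called in both directions. Of 33 measured (34 listed), 13 rose and 10 fell in Huh-7 cells, where 23.8% and 27.4% of all genes did. In HepG2 cells 2 rose and 5 fell, where 3.87% and 3.68% did. Without melatonin replicate 1 the numbers were 7 and 12, where 16.5% and 14.9% did. The medians were 0.02 in Huh-7 and -0.29 in HepG2 cells (-0.09 without that array). SOAT2, which esterifies cholesterol in hepatocytes for packaging with APOB, fell from 3.52 ± 0.10 to 2.30 ± 0.02 in Huh-7 and from 5.29 ± 0.07 to 3.54 ± 0.25 in HepG2 cells (SD, n = 3), log2 fold changes of -1.23 and -1.74 (adjusted p = 1.2e-06 and 0.0050 by limma). SOAT1, the form found in most tissues, rose by 0.80 and 0.39. AADAC, a lipid hydrolase of the endoplasmic reticulum, fell by 1.99 in Huh-7 cells and, from a low level of 1.62, by 0.49 in HepG2 cells. In Huh-7 cells CES1, a triglyceride hydrolase, also fell by 0.73. KLHL12, which helps coat vesicles grow to take large cargo, rose by 1.15 in Huh-7 cells, and SEC31A, an outer coat subunit of the same vesicles, fell by 0.95 in HepG2 cells. PLD1, a phospholipase, rose by 0.73 and 0.60 in the Huh-7 and HepG2 lines. A further gene was named after its values were seen. Without HepG2 melatonin replicate 1, CIDEB, which promotes lipid loading of very low density lipoprotein, fell by 1.15 on the log2 scale in HepG2 cells (adjusted p = 4.6e-05 by limma). With all 6 arrays its log2 fold change was -0.78 (adjusted p = 0.20).

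Of 13 plasma remodelling genes measured (15 listed), 5 fell and 1 rose in Huh-7 cells, where 27.4% and 23.8% of all genes did. That is 6 of 13 called, where 51.2% of all genes were. In HepG2 cells 2 fell and 0 rose, where 3.68% and 3.87% did. Without replicate 1 the numbers were 5 and 0, where 14.9% and 16.5% did. The medians were -0.19 in Huh-7 and -0.10 in HepG2 cells (-0.09 without replicate 1). The median control level of the list was low, 2.27 in Huh-7 and 2.63 in HepG2 cells. ANGPTL8, an inhibitor of lipoprotein lipase, fell by 1.0 in HepG2 cells (SE 0.17, adjusted p = 0.025 by limma), and ABCG8, which pumps sterol into bile, by 0.65. PLTP, which transfers phospholipid between lipoproteins, rose by 0.24 in Huh-7 cells.

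Among 15 lipoprotein receptor genes measured (19 listed), 4 rose and 5 fell in Huh-7 cells, where 23.8% and 27.4% of all genes did. In HepG2 cells 2 rose and 0 fell, where 3.87% and 3.68% did. Without replicate 1, 4 rose and 4 fell there, where 16.5% and 14.9% did. The medians were -0.08 in Huh-7 and 0.06 in HepG2 cells (-0.02 without replicate 1). VLDLR, a receptor for triglyceride-rich lipoproteins and APOE, rose from 4.02 ± 0.16 to 6.38 ± 0.05 in Huh-7 and from 4.61 ± 0.11 to 6.27 ± 0.45 in HepG2 cells (SD, n = 3), log2 fold changes of 2.36 and 1.67 (adjusted p = 2.5e-07 and 0.013 by limma). MYLIP, the ubiquitin ligase that marks receptors of this family for breakdown, rose by 0.74 and 1.49. LRP8, an APOE receptor, fell by 2.22 in Huh-7 cells, as did ASGR1, the asialoglycoprotein receptor, by 1.37 and SDC1, a remnant-binding proteoglycan, by 0.86. In HepG2 cells ASGR1 and SDC1 did not pass with all arrays. Without replicate 1 they fell there by 0.64 and 0.42 (adjusted p = 0.00029 and 0.0022 by limma). SDC1 also fell in HGC-27 cells, by 0.70, and in HCT-8 cells, by 0.56.

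Transcription factors known to act on apolipoprotein genes were measured for 28 of 36 listed, the other 8 not being analysed here. Of the 28, 13 rose and 6 fell in Huh-7 cells, where 23.8% and 27.4% of all genes did. In HepG2 cells 5 rose and 3 fell, where 3.87% and 3.68% did. Without replicate 1, 13 rose and 6 fell there, where 16.5% and 14.9% did. The medians were 0.15 in Huh-7 and -0.01 in HepG2 cells (0.15 without replicate 1). NR1D2, a repressor nuclear receptor of the circadian clock, rose by 0.78 in Huh-7 and 1.45 in HepG2 cells. NR2F6, an orphan receptor, fell by 0.48 and 1.06, and CEBPD by 0.30 and 0.45. CEBPB rose in every line, by 1.02 in Huh-7, 0.84 in HepG2, 0.99 in HGC-27 and 0.54 in HCT-8 cells. ATF4, the factor of the integrated stress response, rose by 1.14 in Huh-7, 0.77 in HGC-27 and 0.84 in HCT-8 cells. Its HepG2 log2 fold change of 0.54 did not pass (adjusted p = 0.14 by limma). NR0B2, a corepressor of liver nuclear receptors, fell in Huh-7 cells from 3.73 ± 0.15 to 3.26 ± 0.16 and rose in HepG2 cells from 8.03 ± 0.05 to 9.70 ± 0.22 (SD, n = 3). The Huh-7 minus HepG2 difference of its effects was -2.15 (SE 0.18, adjusted p = 4.0e-05 by limma). FOXA1, a liver pioneer factor, rose by 0.29 in Huh-7 and fell by 0.50 in HepG2 cells, and EGR1 rose by 1.26 in HepG2 cells. No binding of any factor was measured.

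**Figure D5:**
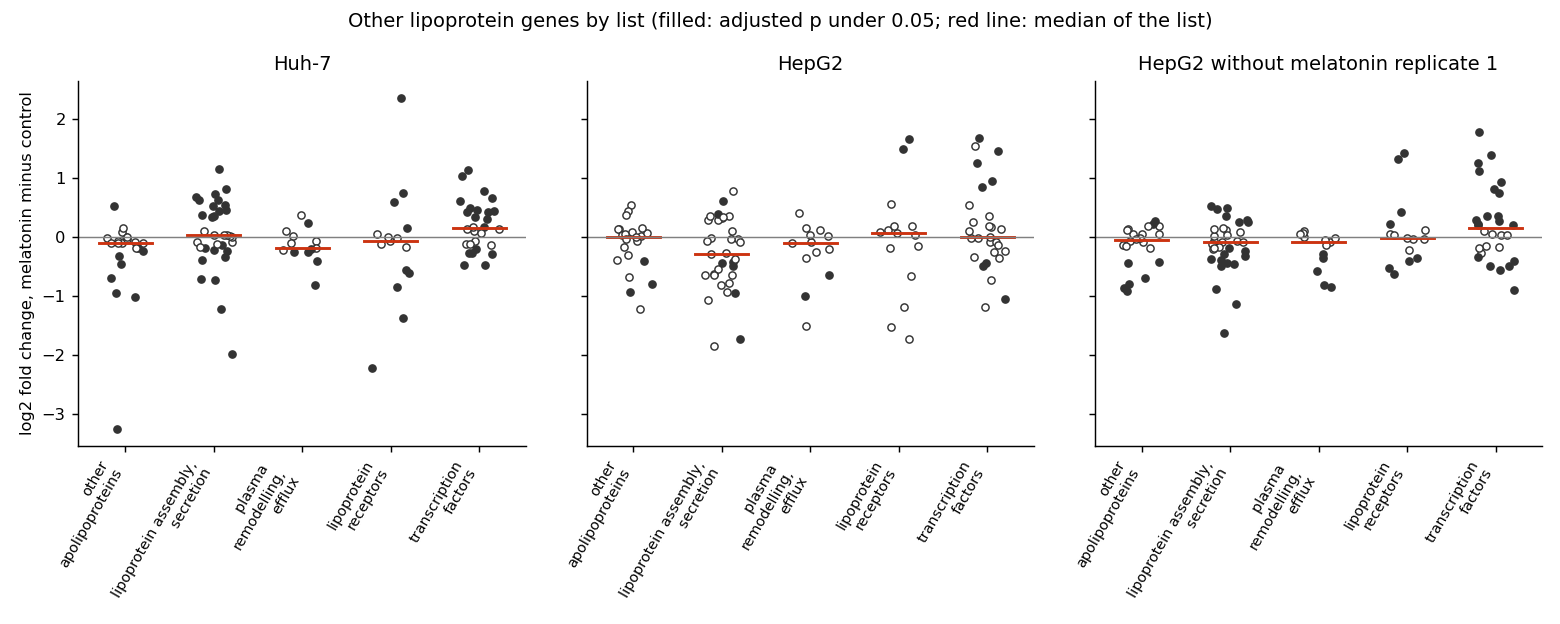
Log2 fold change, melatonin minus control (vertical axis), of the genes in 5 lists of lipoprotein metabolism in Huh-7 cells, HepG2 cells and HepG2 cells without melatonin replicate 1; filled points passed an adjusted p of 0.05 over all genes and the red bar is the list's median. SAA4 is the lowest point in Huh-7 cells at -3.26 and VLDLR the highest at 2.36.

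The genes closest to APOC3, APOA5 and APOA1, whose log2 fold change was at least 1 in size in a liver line, were sought over the 12 liver arrays, each array taken relative to its line's control mean. Closest to APOC3 were ATP5MC1, GINS1 and SOAT2, with root mean square differences of 0.06, 0.12 and 0.14 log2 units. Closest to APOA5 were CCN1, SLC23A1 and GPAM, at 0.11, 0.13 and 0.14. Closest to APOA1 were PIGU, SLC2A1 and TSEN54, at 0.06, 0.08 and 0.08. On HepG2 melatonin replicate 1 these last 3 genes differed from the mean of replicates 2 and 3 by -3.30, -3.32 and -3.34 log2 units and APOA1 by -3.35. APOA1 met the size only with that array and did not pass the test in HepG2 cells.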

How the data were processed

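The authors hybridized RNA to a customized PrimeView array, and the deposited values are log2 intensities from robust multichip analysis (RMA, version and annotation not given in the sources used here) for 49495 probe sets. Labels and methods differ on the RNA extraction (Trizol or RNeasy). Probe sets were named by the platform annotation: 45284 had 1 gene symbol (6 of them array controls, not used), 1333 had several symbols and 2878 no listed gene. The mean of the probe sets used gave 18244 genes. Array medians ran from 2.13 to 3.33 and differed more between than within lines, so that lines look normalized separately.

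Melatonin and control arrays were compared within each line with limma 3.58.1 (R 4.3.3), two-sided, and p was adjusted by Benjamini-Hochberg (5%) across the genes, or across the probe sets. Effects of the liver lines were compared by the interaction term of the 12 liver arrays, and those of the 4 lines by a moderated F test. The fits were tested on simulated data. All 10 members are named, and of each other list, per liver line, up to 3 higher and 3 lower called genes with the largest change, no overlap and a mean at or above the median gene. The members and lists were chosen with earlier results of these data known. For the 3 members with a log2 fold change of at least 1 in size in a liver line, called or not, the 3 closest genes are given. Alternatives were a replicate block, the brightest probe set, a filter at the 25th percentile, further normalization or centring, spread and weight settings, a joint fit, other thresholds, the methods' t-test and leaving out each array. The fits of the 4 lines and the other lists without HepG2 melatonin replicate 1 were added after seeing the data.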

Additional observations from a re-analysis of the deposited data

Results flagged for a closer look

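The effect of melatonin differed between Huh-7 and HepG2 cells, by the interaction test of the 12 liver arrays, for APOA5 (Huh-7 minus HepG2 0.97 on the log2 scale) and APOA4 (0.65). Over the 4 lines the effect differed by limma's F test for APOC3 (adjusted p = 6.7e-07), APOA5 (8.4e-06), MTTP (0.00027), APOA4 (0.0015), APOH (0.0020), APOM (0.0034) and APOA2 (0.022). In control cells of the gut lines these genes read 0.75 to 2.93, near or below the array median. Such levels leave little room for a fall, although APOH and APOC3 fell in HCT-8 cells, by 0.79 and 0.25 on the log2 scale. This concerns the genes that fell in the liver lines and not APOA2, which rose in Huh-7 cells. In Huh-7 control cells APOA4 read 1.17 and APOA5 2.61. From the other lists, 40 genes were picked for large called changes in a liver line, HepG2 with or without melatonin replicate 1. By the interaction test 14 of the 40 differed between the liver lines, where 11% of all genes did. As they were picked for large changes in these data, that count says nothing of the lists as a whole. The Huh-7 minus HepG2 difference on the log2 scale was -2.46 for SAA4, -2.15 for NR0B2, -2.06 for LRP8, -1.50 for AADAC, -1.15 for EGR1, -0.91 for SAA1 and -0.75 for MYLIP. It was 1.02 for ANGPTL8, 0.87 for KLHL12, 0.80 for FOXA1, 0.78 for SEC31A, 0.76 for APOL1, 0.58 for NR2F6 and 0.41 for SOAT1. NR0B2 and FOXA1 passed the test in opposite directions in the 2 lines. Control levels were low in 1 of the lines for ANGPTL8 (1.27 in Huh-7), AADAC (1.62 in HepG2) and SAA1 (0.72 in HepG2). Such levels leave little room for a fall, although AADAC fell by 0.49 in HepG2 cells. For these genes a difference in response and in level cannot be told apart.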

How the results depend on the processing

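The number of members called depended on the setting most in HepG2 cells, where 6 fell. That number was 0 with the replicate number as a block, 1 with the methods' t-test, 1 at an adjusted p of 0.01 and 0 to 6 when an array was left out. Members higher in HepG2 cells numbered 1 with array weights (APOE), 1 in the joint fit (APOA2) and 0 to 1 with an array left out, in place of 0. HepG2 probe sets called lower ranged from 0 to 10 and called higher from 0 to 1 with an array left out, in place of 8 and 0. The lowest array weight, 0.0531, was that of HepG2 melatonin replicate 1. In Huh-7 cells, with 6 lower and 2 higher, 3 fell and 0 rose by at least 1.5-fold, and 1 rose in the joint fit. In HGC-27 cells the 1 gene that rose, APOE, was lost in the joint fit and at 1.5-fold (0 each). The 0 lower became 1 with quantile normalization, 4 with median centring and 0 to 1 with an array left out. HGC-27 probe sets called lower numbered 1 with the filter and 0 to 2 with an array left out. In HCT-8 cells, with 2 lower, 1 was called with ERCC centring, the joint fit, the methods' t-test, 1.5-fold and an adjusted p of 0.01, and 3 with the brightest probe set of each gene. HCT-8 probe sets called lower, 3, ranged from 1 to 3 with an array left out. Members differing between the liver lines, 2, numbered 1 with the replicate block, 4 with array weights and 1 to 4 with an array left out. Over the 407 single gene values under these settings, 339 kept their direction and call, 57 lost the call, 2 gained it and 9 changed sign. The signs that turned were those of APOB in Huh-7 cells (brightest probe set -0.022, median centring -0.046, ERCC centring -0.0025, and -0.025 to 0.047 with an array left out), of APOB (-0.069) and APOA2 (-0.010) in HepG2 cells with ERCC centring, and of APOE in HepG2 cells with array weights (0.38, adjusted p = 0.019) or without melatonin replicate 1 (0.38, adjusted p = 0.0023; range -0.48 to 0.38 with an array left out). Where a fit uses fewer arrays or another spread its calls differ by construction, and otherwise the cause was not tested. Of 100 ERCC probe sets only 1 or 2 per line lay above the median, so ERCC centring rests on few values. These differed between melatonin and control by 0.24 in HepG2 and 0.017 in Huh-7 cells, by -0.24 in HCT-8 and by -0.14 in HGC-27 cells, so the centring shifts all genes of the line by as much the other way. APOA4 in Huh-7 cells was below the filter and has no value there. Samples with the same replicate number deviated together with correlations of -0.04 to 0.14. Neither the labels nor these values settle whether such samples share more than the number.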
